A study of Mus musculus with 3 samples.

Results

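Vesicle fusion and exocytosis genes were examined in the ATAC-seq libraries of mouse islets of Langerhans. They were taken by symbol from the GENCODE annotation of mm9: autosomal protein-coding genes of the Syt, Stx, Stxbp, Vamp, Rab3 and Rab27 families, the synaptotagmin-like genes, Snap23, Snap25, Snap29, the Unc13 genes, Rims1 and Rims2. The rule gave 78 genes out of 21410 autosomal protein-coding genes with an annotated start, and used no measured value. Its spelling also takes in 10 genes of the RAB30 to RAB39 series, small GTPases that are named like Rab3 but act mostly on other transport steps, and these are given as a group of their own.

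ATAC-seq maps open chromatin with a transposase that puts adapters into accessible DNA, and it was performed on cells from dissociated islets of mice given as strain C5LBl6 by the labels. The 3 libraries, 1 per group, came from wild type (WT) mice and from Taf4 KO mice 1 week and 5 weeks after the gene for Taf4, one of the proteins that make up the basal factor TFIID, had been inactivated. According to the study, floxed Taf4 alleles were recombined in adult beta cells by an Ins1-driven, tamoxifen-inducible Cre (Ins1::Cre-ERT2), its controls carried the same Cre and received tamoxifen too, and the driver leaves the gene in alpha cells, so each mutant library mixes cells with and without it. Whether islets of several animals were pooled for ATAC-seq is not given in the sources used here. The question was how loss of Taf4 in beta cells bears on chromatin accessibility, here at the genes that carry out insulin release.

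Secretory granules fuse with the plasma membrane when SNARE proteins of both membranes wind together. A VAMP protein on the granule meets a syntaxin and a SNAP protein on the plasma membrane, and Stxbp (Munc18) proteins hold the syntaxin ready for the assembly. Rab3 and Rab27 bring granules to the membrane with the help of RIM and synaptotagmin-like proteins, Munc13 proteins prime them, and synaptotagmins couple fusion to the rise of calcium. In beta cells this machinery releases insulin, and alpha and delta cells, which are also in these libraries, use much of the same set for glucagon and somatostatin.

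A gene was counted as having a promoter peak when a peak of the authors' list reached into the window that runs from 1000 bp before any of its starts to 100 bp after it. The fold is the caller's mean enrichment over local background, and since -log10 q grows with depth, its strength is given as a percentile among all peaks of the same list. The lists held 60898 peaks in WT against 150354 and 151725 at 1 and 5 weeks, and the background read depth recovered from them was 1.76 and 2.57 times the WT value at 1 and 5 weeks. All 9 beta cell markers examined, among them Ins1, Ins2 and Mafa, had a promoter peak in each list. The acinar markers had 0, 0 and 1 of 5, the stellate markers 0, 0 and 2 of 3 and the immune markers 0, 1 and 0 of 2 in WT, 1 week and 5 weeks. Alpha cell markers had 3, 4 and 4 of 4, delta cell markers 1, 2 and 3 of 3, duct markers 2, 1 and 2 of 3, endothelial markers 1, 1 and 2 of 3 and neuronal markers 2, 1 and 3 of 3, and their part in the results was not tested. With 1 library per group no spread between animals can be estimated, so no p-value was computed and every difference is one between libraries.

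Core members of the release machinery differed in their promoter calls, and the bases before the start of 4 of them are shown to let their composition be compared. Snap25, Vamp2 and Stx1a encode the SNARE trio of regulated release. Vamp1 encodes a close relative of Vamp2 and stood highest of all members in the WT list by percentile. Each run gives the 200 bases that end just before the most upstream start, 5′ to 3′ on the gene's own strand, read from NCBIM37, the assembly that mm9 names. Capitals mark matches to 4 motifs, searched on both strands and joined where they overlap. The GC box was searched as the letters GGGCGG. The CCAAT box was searched under its own letters. For the TATA box the letters were TATAAA. For the cyclic AMP response element (CRE) they were TGACGTCA. The E box, searched as the letters CACGTG, is absent from these 4 runs, and so is the core of the NRF1 motif, searched as GCATGCGC.
Stx1a, chr5:135499152-135499351, plus strand: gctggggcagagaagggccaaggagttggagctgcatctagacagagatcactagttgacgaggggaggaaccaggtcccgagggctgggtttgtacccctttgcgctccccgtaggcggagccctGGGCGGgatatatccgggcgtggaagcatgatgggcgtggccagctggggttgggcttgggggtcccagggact
Vamp2, chr11:68901792-68901991, plus strand: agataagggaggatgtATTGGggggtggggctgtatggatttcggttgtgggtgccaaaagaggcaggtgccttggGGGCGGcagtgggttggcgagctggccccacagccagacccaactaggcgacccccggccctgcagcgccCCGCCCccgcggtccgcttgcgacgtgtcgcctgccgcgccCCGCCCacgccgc
Snap25, chr2:136538989-136539188, plus strand: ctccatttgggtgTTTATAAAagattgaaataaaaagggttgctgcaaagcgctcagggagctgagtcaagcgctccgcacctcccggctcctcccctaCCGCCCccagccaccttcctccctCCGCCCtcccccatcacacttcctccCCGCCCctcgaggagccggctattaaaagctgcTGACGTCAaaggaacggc
Vamp1, chr6:125165369-125165568, plus strand: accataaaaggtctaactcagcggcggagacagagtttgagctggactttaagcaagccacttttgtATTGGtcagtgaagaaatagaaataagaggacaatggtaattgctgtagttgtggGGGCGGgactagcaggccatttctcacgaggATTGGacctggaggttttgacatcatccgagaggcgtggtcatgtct

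These promoters differ widely in base composition. The run before Vamp2 has 70.5% GC and 18 CpG dinucleotides, that before Stx1a 64% and 9, that before Snap25 59% and 11, and that before Vamp1 47.5% and 6. Each of the 4 holds a GC box, which 38.8% of all autosomal promoters hold in the same 200 bases. Of these 4 only Snap25 holds the TATAAA letters, found in 10.1% of all, and the CRE, found in 1.81%. A match of letters describes the sequence and does not show that a factor binds.

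In WT islets the promoters of most exocytosis genes were accessible. A promoter peak was present at 69 of the 78 members (88.5%, Wilson 95% interval 79.5 to 93.8), against 59.8% of all autosomal protein-coding genes. At 1 week 62 members had one (79.5%, 69.2 to 87), against 56% of all genes, and at 5 weeks 72 (92.3%, 84.2 to 96.4), against 66.6%. The intervals cover the counting of genes only, and in bulk islet cells a shift in the share of a cell type cannot be told apart from a change of accessibility within it. The members and all genes thus had fewest calls at 1 week and most at 5 weeks, and the members stood above the background in each list.

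**Figure D1:**
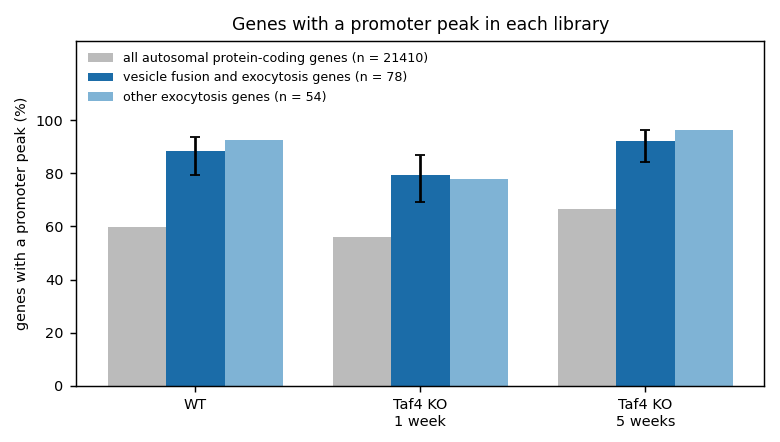
Share of genes with a promoter peak (%, vertical axis) in the 3 libraries, for all autosomal protein-coding genes, the 78 members and 54 other exocytosis genes. Lines on the members' bars are Wilson 95% intervals, which cover the counting of genes only. The members stood at 88.5% in WT against 79.5% and 92.3% at 1 and 5 weeks, above the 59.8%, 56% and 66.6% of all genes.

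The members' promoters were richer in CpG than the average promoter. Over the 300 bases around the start, 250 of them upstream, the median ratio of observed to expected CpG was 0.638 in the members and 0.552 in all genes, and the GC content 60.3% and 55.7%. A GC box was held by 51 members (65.4%, all genes 44.3%), the TATAAA letters by 6 (7.69%, all genes 13.5%) and the NRF1 core by 7 (8.97%, all genes 3.4%). CCAAT was held by 26 members (33.3%, all genes 37.6%), the E box by 7 (8.97%, all genes 7.79%) and the CRE by 3 (3.85%, all genes 2.33%). The 6 members with no promoter peak in any list had a median CpG ratio of 0.232, against 0.699 in the 61 members with a peak in all 3.

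Among the peaks that were present, the members' promoters were slightly below the average promoter in strength. Their median fold was 3.97 in WT against 3.23 and 3.64 at 1 and 5 weeks, against 4.3, 3.36 and 3.69 over all genes with a promoter peak. Their median percentile of -log10 q was 82.1 (order-statistic 95% interval 77.2 to 85.6), 87.2 (82.9 to 91.2) and 88.9 (86 to 91), against 85.3, 88 and 89.8 over all genes. Single members ranged widely in WT, from the 16.4 percentile at Syt10 to the 99.5 percentile at Vamp1. Nearly all of these peaks lay over a start, in 68 of the 69 members called in WT, 59 of 62 at 1 week and 69 of 72 at 5 weeks, and the WT exception was Syt16, whose peak ended 89 bp upstream.

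**Figure D2:**
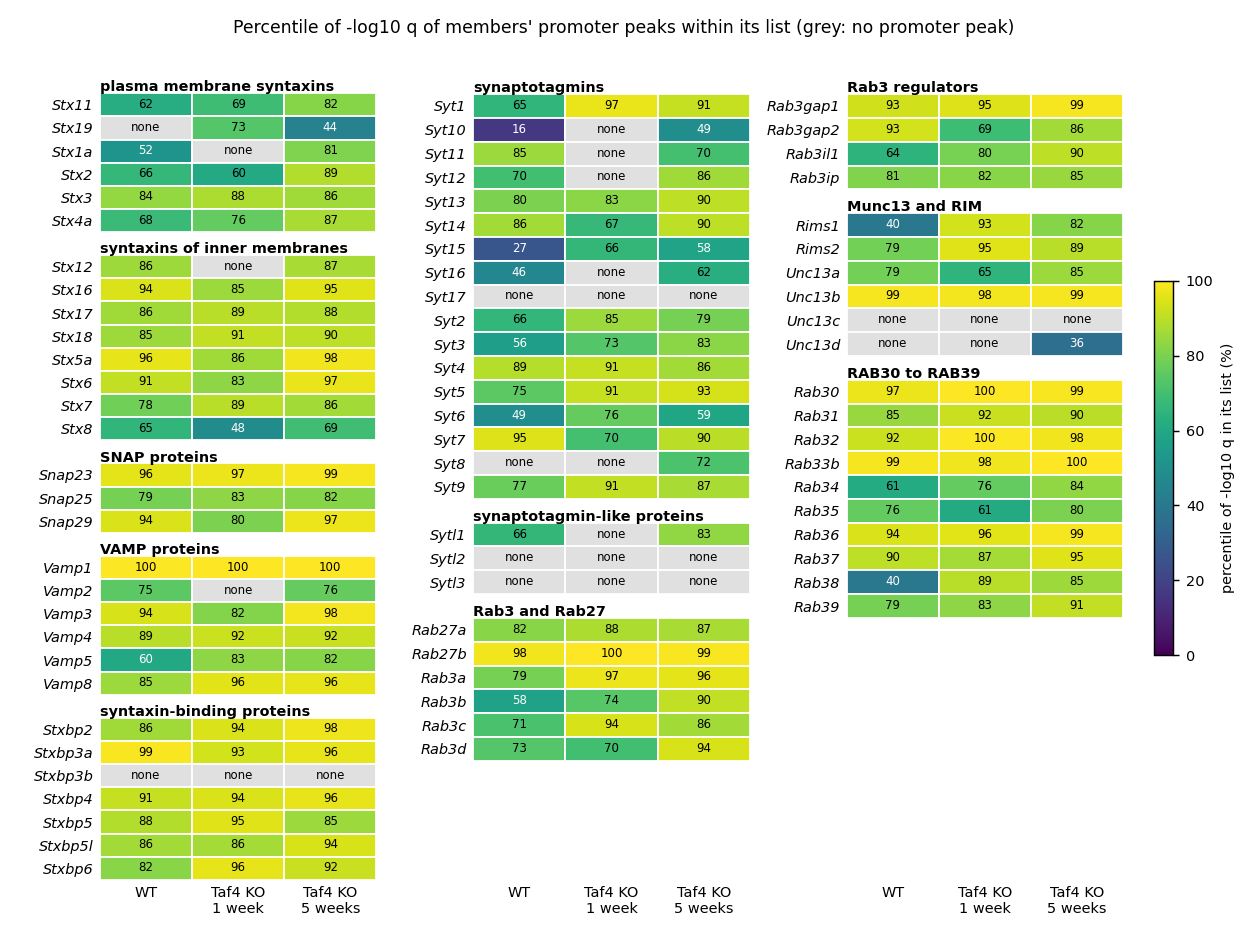
Percentile of -log10 q (%) of the promoter peak of 76 of the 78 members within its own list, for WT and for Taf4 KO at 1 and 5 weeks, grouped by role. Colour and printed number both give the rounded percentile and grey cells marked none have no promoter peak. Vamp1, Unc13b and Rab27b stand at 98 or above in every list, whereas Stx1a, Vamp2, Stx12, Sytl1 and 4 synaptotagmins are without a peak at 1 week only.

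At 1 week 8 of the 69 members with a WT promoter peak had none (11.6%, Wilson 5.99 to 21.2), and over all genes the share was 14.8%. The members' share is thus near the background. They were Stx1a, Vamp2, Stx12, Sytl1, Syt10, Syt11, Syt12 and Syt16, and in none of them did any 1 week peak overlap the WT promoter peak. All 8 had a promoter peak at 5 weeks, as did 1673 of the 1889 genes of the whole annotation that were without their WT peak at 1 week. The reverse, a peak at 1 week and none in WT, was found at 1 of 9 members (11.1%), against 12.6% of all genes without a WT peak.

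Stx1a, the plasma membrane syntaxin of insulin granule release, had a WT promoter peak of 3.20-fold on chromosome 5 from 135499088 to 135499953, at the 51.9 percentile. The 1 week list held none there, and at 5 weeks a peak of 3.17-fold over the same start stood at the 80.8 percentile. Fold was thus alike in WT and at 5 weeks. A smaller region upstream of the promoter window had a peak in every list, of 3.06-fold in WT between positions -1541 and -1215 relative to the start, of 2.66-fold at 1 week and of 3.26-fold at 5 weeks. The 1 week call was missing at the start and present upstream.

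Vamp2, the granule SNARE that pairs with it, showed the same calls with a stronger WT peak. This peak, on chromosome 11 from 68901849 to 68902836, had a fold of 3.35 and stood at the 74.7 percentile in WT. At 5 weeks it had a fold of 2.91 and stood at the 76.4 percentile. The nearest 1 week peak lay 6218 bp downstream of a start, beyond the end of this short gene. Snap25, the third SNARE of the complex, kept its promoter peak throughout, with a fold of 3.98 in WT against 2.95 and 2.98 at 1 and 5 weeks. Its percentiles were 79.0, 82.9 and 82.0, and its peak was wider after Taf4 loss, 2547 and 2589 bp against 1120 bp, joining an upstream region that was a peak of its own in WT. The 1 Mb around Snap25 has 40.1% GC and those around Stx1a and Vamp2 48.8% and 47.5%.

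**Figure D3:**
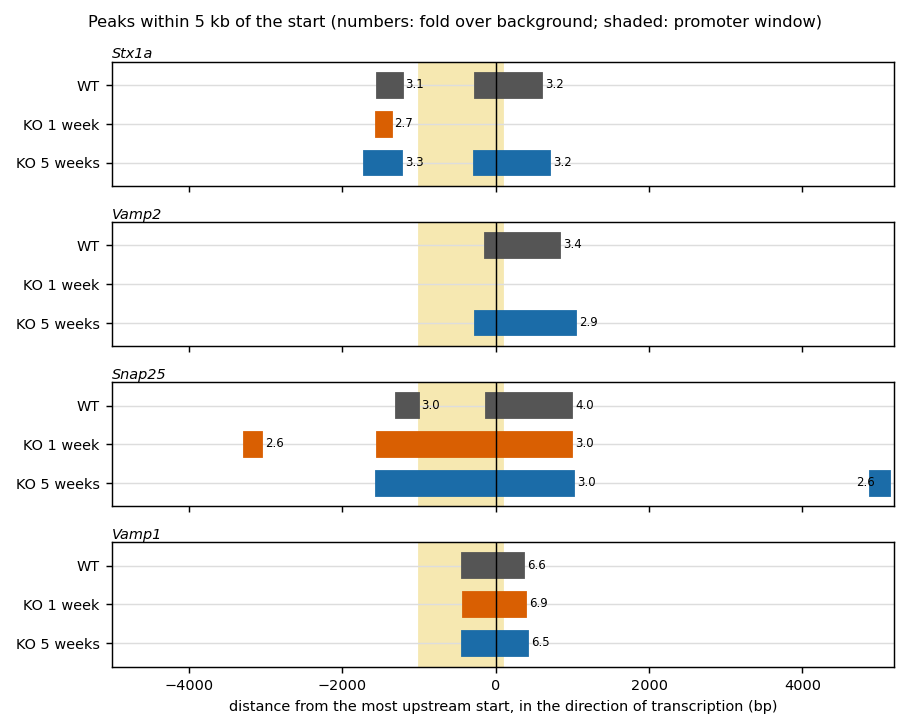
Peaks within 5 kb of the most upstream start of Stx1a, Vamp2, Snap25 and Vamp1 in each list, by distance from the start in the direction of transcription (bp). Bars are peaks, numbers beside them the fold over background, and the shaded stretch is the promoter window. No 1 week peak lies at the Stx1a or Vamp2 start, whereas the Snap25 and Vamp1 starts are covered in all 3 lists.

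The other plasma membrane syntaxins mostly kept their peaks. Of the 7 members of this group, 5 had a promoter peak in WT against 5 and 6 at 1 and 5 weeks. Stx4a, a syntaxin used in the later phase of insulin release, had a fold of 3.49 in WT against 2.87 and 3.67 at 1 and 5 weeks, with percentiles of 67.7, 75.8 and 87.1. Stx3, linked to the recruitment of newcomer granules, had 4.17, 3.28 and 3.22. Stx2 had 3.4, 2.57 and 3.8, and Stx11, best known from cytotoxic granules of immune cells, 3.69, 2.69 and 3.39. In these 4 genes the fold was lower at 1 week than in WT, whereas at 5 weeks it lay above WT in Stx2 and Stx4a and below it in Stx3 and Stx11. Stx19 was without a peak in WT and had one of 2.80-fold at 1 week and 2.22-fold at 5 weeks, at the 73.4 and 44.2 percentiles.

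Syntaxins that serve the Golgi, endosomes and lysosomes had the lowest median ratio of 1 week to WT fold of all role groups. All 8 had a WT promoter peak, with a median fold of 4.71, and 7 had one at 1 week, with a median of 3.29. Of those 7 the median ratio of 1 week to WT was 0.676, and of all 8 the ratio at 5 weeks was 0.840. Stx16, a syntaxin of the trans-Golgi network, had a fold of 5.56 in WT against 3.29 and 4.69 at 1 and 5 weeks. Stx5a, of the early secretory pathway, had 4.87, 3.29 and 5.38. Stx12, an endosomal syntaxin, had 4.10 in WT, no peak at 1 week and 3.68 at 5 weeks, and the nearest 1 week peak was 37944 bp away. Stx8 fell furthest in percentile in this group, from 65.3 in WT to 48.3 at 1 week, and stood at 69.3 at 5 weeks. It shares a promoter window with another gene. Its 1 week peak, of 272 bp against 1442 bp in WT, lay over none of its starts.

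The relatives of Snap25 and Vamp2 were called in all lists. Snap23, a widely expressed relative of Snap25, had a fold of 5.18, 4.55 and 5.61 in the order WT, 1 week and 5 weeks, at the 96.0, 96.9 and 98.6 percentiles. Snap29 had 4.95, 3.01 and 4.62, a ratio of 0.609 at 1 week. Vamp1 had a fold of 6.58 in WT against 6.92 and 6.46 at 1 and 5 weeks. Vamp3, the cellubrevin of recycling vesicles, had 4.82, 3.07 and 5.41. Vamp8, a SNARE of lysosomes and of newcomer insulin granules, had 4.75, 4.27 and 4.76, and its percentile was 85.1, 95.6 and 96.4. Vamp4 and Vamp5 stood at 3.79-fold or less at 5 weeks and were called throughout.

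Among syntaxin-binding proteins, 7 of 8 had a promoter peak in every list, the exception being Stxbp3b, which had none in any. Stxbp3a (Munc18-3), the partner of Stx4a, had a stronger peak of 6.39 in WT against 4.04 and 4.87 at 1 and 5 weeks. Stxbp2 (Munc18-2) had 4.65, 4.06 and 5.04. The tomosyn genes Stxbp5 and Stxbp5l, whose products hold back SNARE assembly, had 4.20, 3.47 and 3.18 and 4.57, 3.4 and 4.60. All 4 were lower at 1 week than in WT, and at 5 weeks Stxbp2 and Stxbp5l were above WT.

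Among synaptotagmins 4 of the 15 called in WT were not called at 1 week (26.7%, Wilson 10.9 to 52, all genes 14.8%), an interval that holds the share of all genes. Of all 17 genes, 15 were called in WT and 11 and 16 at 1 and 5 weeks, where 59.8, 56 and 66.6% of all genes were, and the median percentile of those called was 69.8, 82.6 and 84.2. Syt7, one of the main calcium sensors of insulin release, had a WT peak at the 94.8 percentile with a fold of 3.54. At 1 week it stood at the 70.0 percentile with a fold of 2.44, the largest fall of percentile among the members. At 5 weeks it stood at the 89.7 percentile with a fold of 2.72. Syt9, a further calcium sensor of beta cells, moved the other way in percentile, from 77.2 in WT to 91.0 and 86.9. Its folds were 3.97, 3.15 and 3.16. Syt5 had 3.82, 3.69 and 4.41 and its percentile was 74.7, 91.1 and 93.4. Syt1, the fast calcium sensor of synapses, had nearly the same fold in the 3 lists, 3.75, 3.63 and 3.72, and its percentile was 65.4, 96.8 and 91.3.

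Syt4 and Syt13, which lack the usual calcium binding, were called in every list. Syt4 had a fold of 5.47 in WT against 3.56 and 3.53 at 1 and 5 weeks, ratios of 0.651 and 0.645. Syt13 had 3.06, 2.76 and 2.89. Syt11 was one of the members without a 1 week peak and had the largest fall at 5 weeks. In WT separate peaks lay at 3 of its 4 starts, with percentiles of 48.5, 74.1 and 85.0 from the most upstream on. None of the starts had a peak at 1 week, and at 5 weeks only the third had one, at the 70.1 percentile with a fold of 2.73 against 5.58. Syt12 had 3.75 in WT and 3.67 at 5 weeks, at the 69.8 and 85.7 percentiles. Syt10 and Syt16 were weak in WT, at the 16.4 and 45.9 percentiles, and at the 48.8 and 62.5 percentiles at 5 weeks.

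Of the other synaptotagmins, Syt15 and Syt6 had weak WT peaks and a higher percentile in both Taf4 KO lists. Syt15 stood at the 26.6 percentile in WT against 66.4 and 58.1 at 1 and 5 weeks, and Syt6 at 49.0, 76.5 and 59.0, with no higher fold in either. Over all genes called in both lists the median difference in percentile was 1.91 and 5.02 percentage points. Genes equally weak in WT are not set beside them here. Syt14 had a fold of 4.51, 2.65 and 3.93, the lowest 1 week ratio of all members at 0.586. Syt2 and Syt3 had 2.80, 3.04 and 2.42 and 3.31, 2.73 and 3.32. Of the lists, that of 5 weeks alone gave Syt8 a promoter peak, of 2.81-fold at 1 of its 4 starts, and that peak overlapped a WT peak of 3.03-fold that ended outside the window. Syt17 had none in any list. Of the synaptotagmin-like genes, whose products bind Rab27 on granules, Sytl1 had 3.27 in WT, none at 1 week and 3.26 at 5 weeks, and Sytl2 and Sytl3 had none in any list.

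The granule GTPases were called without exception. Rab27b had a fold of 7.11 in WT, the highest of all members, and 6.03 at 1 week and 5.27 at 5 weeks. Rab27a, which acts in insulin granule docking, had 3.55, 3.33 and 3.13. Rab3a, the main Rab3 of neurons and endocrine cells, had 3.22 in WT against 4.29 and 3.54 at 1 and 5 weeks, the largest ratio at 1 week among the members at 1.33. Rab3b had 3.37, 2.78 and 3.98, Rab3c 4.42, 3.84 and 3.39, and Rab3d 3.51, 2.70 and 4.39. The order of the Rab3 genes by fold thus differed between the lists. Of the regulators of Rab3, Rab3gap2, a subunit of its GTPase-activating complex, had 4.58, 2.70 and 3.34, while its partner Rab3gap1 had 6.07, 4.30 and 5.92. Rab3il1 and Rab3ip, exchange factors by family, were called throughout, at 3.27, 2.99 and 3.81 and at 3.99, 3.09 and 3.41.

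Priming factors were split by gene. Unc13b (Munc13-2) had one of the strongest WT peaks, 6.07-fold, with 5.15 at 1 week and 5.27 at 5 weeks, all at its upstream cluster of 4 starts and none at its 2 inner starts. Unc13a (Munc13-1), needed for normal insulin release, had 3.32, 2.6 and 2.96, at the 78.6, 65.1 and 84.9 percentiles. Unc13d had a weak peak at 5 weeks alone, of 2.14-fold at the 35.6 percentile, and Unc13c had none in any list. Rims2, the main RIM of beta cells, had a fold of 3.38 at its upstream starts in WT and 4.04 there at 1 week. The percentile at these starts was 78.8, 95.3 and 86.2 in the order WT, 1 week and 5 weeks. An inner start of Rims2 was without a peak in WT and had one at the 94.5 percentile at 1 week and the 89.3 at 5 weeks, and this inner peak, of 4.0-fold, was the strongest of the gene at 5 weeks and stands for it in the counts and the plots. Rims1 rose most in percentile of all members at 1 week, from 40 in WT to 93.0. At 5 weeks it stood at 82.0, a smaller rise than that of Rab38. The fold of Rims1 was 3.15, 3.0 and 2.80 in the order WT, 1 week and 5 weeks. Of its 4 starts, 1 had a peak in WT against 3 and 4 at 1 and 5 weeks.

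All 10 RAB30 to RAB39 genes had a promoter peak in each list. Rab38, a GTPase of lysosome-related organelles, was at the 40 percentile in WT and at 89.1 and 85.4 after Taf4 loss, with folds of 3.16, 3.09 and 3.29. Rab33b, which serves the Golgi and autophagy, was among the members strongest in WT, with 5.48, 4.99 and 5.59. Rab35 had 3.64, 2.57 and 3.26 and fell in percentile from 75.8 to 60.8 at 1 week. Rab37, a GTPase found on insulin granules, had 3.47, 3.42 and 3.61. Without these genes the members called numbered 59, 52 and 62 of 68.

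In most members called in both lists, fold was lower after Taf4 loss and the percentile was higher. At 1 week the fold was below WT in 57 of 61 members (93.4%, Wilson 84.3 to 97.4, all genes 82.9%), with a median ratio of 0.824 against 0.817 over all genes. At 5 weeks it was below WT in 48 of 69 (69.6%, 57.9 to 79.2, all genes 76.5%), with a median ratio of 0.912 against 0.904. The percentile was above WT in 43 of 61 at 1 week (70.5%, 58.1 to 80.4, all genes 59.4%) and in 62 of 69 at 5 weeks (89.9%, 80.5 to 95, all genes 79.9%). The members' median ratios were close to those of all genes. In 2 members at each time, among them Rims2 at 5 weeks, the peaks compared lay at different starts, and without them fold was below WT in 55 of 59 and 48 of 67 members. The lists after Taf4 loss hold more than 2 times as many peaks as the WT list, so a higher percentile can go with a larger number of stronger peaks. The part of list size in the percentile was not tested, and both comparisons share the WT list.

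At 5 weeks no member was without its WT promoter peak, 0 of 69 (Wilson upper bound 5.27%), and over all genes the share was 1.82%. Of the 9 members without a WT peak, 3 had one at 5 weeks (33.3%, 12.1 to 64.6), Stx19, Syt8 and Unc13d, against 19.7% of all genes. With the same number of peaks taken from each list, the strongest first, Stx19 had a peak at 1 week alone, Syt8 at 5 weeks alone and Unc13d in no list, and 3 members were without their WT peak at 5 weeks. Once pileups were scaled to the WT depth, 4 members were. For these settings no share of all genes is set beside the counts. Depth differed between the lists and its part in these calls cannot be told apart from that of Taf4 loss.

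The calls missing at 1 week lay mainly in GC-rich surroundings. Genes called in WT were divided into 5 groups of one size on the GC percentage of the surrounding 1 Mb, with borders at 42.2, 44.1, 45.9 and 47.9%. In the least GC-rich group 0 of 21 members (Wilson upper bound 15.5%) were without their peak at 1 week, against 2.93% of all genes of that group. In the next groups it was 2 of 12 (all genes 7.78%), 0 of 7 (11.3%) and 4 of 16 (21%). In the most GC-rich group it was 2 of 13 members (15.4%, Wilson 4.33 to 42.2) against 30.9% of all genes. The 8 members stood in surroundings of 42.3 to 48.8% GC. In every group the members' Wilson interval held the share of all genes.

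Percentile and fold related to GC content differently at the 2 times. Among members called in both lists, Spearman's rho between the GC content of the 1 Mb and the difference in percentile was -0.357 at 1 week (61 members, all genes -0.273) and 0.0308 at 5 weeks (69 members, all genes 0.0147). For the ratio of fold to WT rho was -0.0707 at 1 week (all genes 0.0031) and 0.316 at 5 weeks (all genes 0.214). These are correlations across genes of the same libraries and genes are not independent replicates. Rab38, Syt1 and Rims1, at 38, 38.3 and 39.4% GC the least GC-rich members but for Stx19, rose by 49.1, 31.4 and 53.0 percentage points at 1 week. Syt15, at 45.1% GC, rose by 39.8 and Syt6, at 43.3%, by 27.6. Syt7, at 48.4% GC, fell by 24.8 percentage points and Rab3gap2, at 44.9%, by 24.7. At 5 weeks Rab38 and Rims1 again stood highest, by 45.4 and 42.1 percentage points, followed by Rab3b with 32.5, Syt10 with 32.4 and Syt15 with 31.5. At 5 weeks Syt11 fell by 14.9 percentage points, Rab3gap2 fell by 7.37 and Syt7 fell by 5.08.

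**Figure D4:**
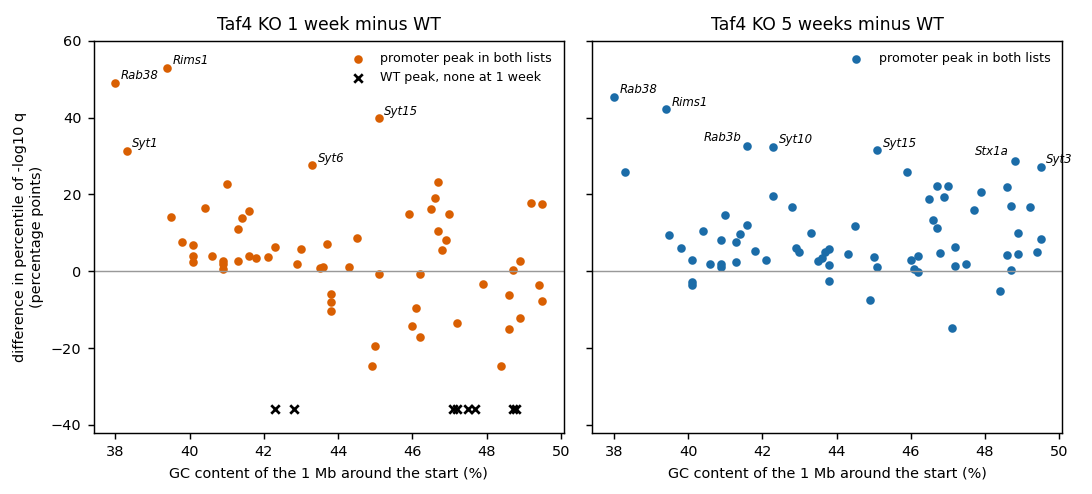
Difference in percentile of -log10 q of the members' promoter peaks, Taf4 KO minus WT (percentage points, vertical axis), against the GC content of the 1 Mb around the start (%, horizontal axis), at 1 week (left) and 5 weeks (right). Points are members with a promoter peak in both lists, and crosses, placed at the bottom, are the 8 members with a WT peak and none at 1 week. At 1 week Rab38, Rims1 and Syt1 stand highest at the left, and 6 of the 8 crosses lie above 47% GC.

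Within the gene bodies, outside the promoter peaks, the members together held more peaks after Taf4 loss, and Rims1 and Unc13c held a large part of them. The WT list gave 163, that of 1 week 281 and that of 5 weeks 397, ratios to WT of 1.72 and 2.44, against 1.53 and 2.01 for all genes. Rims1, a gene of 635 kb, had 0 in WT against 68 and 61 at 1 and 5 weeks. Unc13c, of 453 kb and without a promoter peak in any list, had 1, 18 and 57, and Syt1, of 513 kb, 10, 34 and 20. Syt16 and Stx8 ran the other way at 1 week, with 15, 7 and 16 and with 14, 8 and 16. Rims2, at 484 kb, had 8, 11 and 13. Without Rims1 and Unc13c the members held 162, 195 and 279, ratios to WT of 1.2 and 1.72. Both were left out after their counts were seen, while all genes were kept whole, so these ratios cannot be set against those of all genes. Such a peak was present in 50 members in the WT list and in 44 and 56 members after 1 and 5 weeks, and the median count was 1, 1 and 2. Over all 21410 genes it was present in 8505, 8278 and 10333, also fewest at 1 week and most at 5 weeks. Their median count was 0 in each list.

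**Figure D5:**
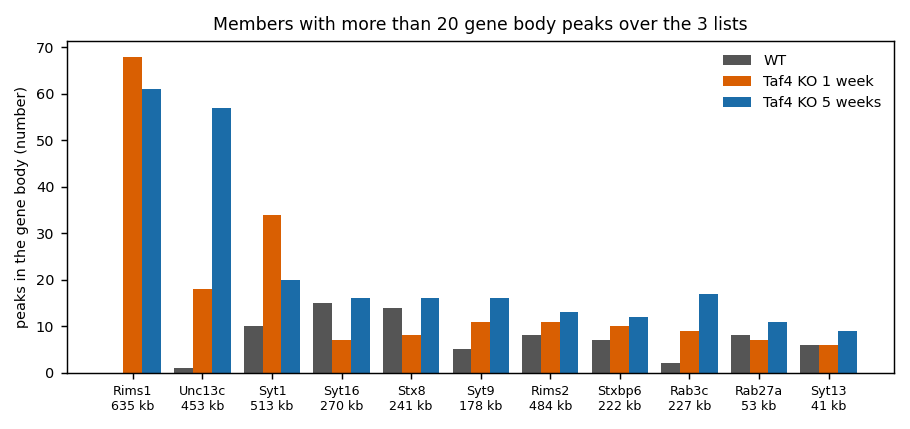
Number of peaks within the gene body, promoter peaks left out, in each of the 3 lists for the 11 members with over 20 such peaks in the 3 lists together. Gene length in kb stands under each symbol. Rims1 goes from 0 in WT to 68 and 61, and Unc13c from 1 to 18 and 57, while Syt16 and Stx8 have fewer at 1 week than in WT.

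The rise of the members' gene body peaks at 1 week lay in their least GC-rich group, and in each of the other groups they held fewer than in WT. The 25 members of the least GC-rich group held 15.1 peaks per Mb of gene in WT against 52.3 and 61.5 at 1 and 5 weeks, and all genes of that group 13.3, 58.5 and 51.5. The 19 members of the second most GC-rich group held 39.8, 22.4 and 45.9, and all genes of it 43, 27.1 and 58. In the second least GC-rich group the 12 members held 36.1, 28 and 58.3 peaks per Mb and all genes 27.3, 35.9 and 54.2, so that at 1 week the members held fewer than in WT and all genes more. With the same number of peaks taken from each list the members held 163, 159 and 190, and Rims1 had 0, 12 and 3. The members' ratios to WT were then 0.975 and 1.17, against 0.768 and 0.941 for all genes. Scaled to the WT depth, the members held 163, 147 and 156, and Rims1 had 0, 8 and 0. Their ratios were 0.902 and 0.957, against 0.697 and 0.741 for all genes.

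Other genes of the pathway, outside the symbol rule, gave similar calls. From a list of 54 such autosomal genes, among them complexins, NSF and its SNAP adaptors, the CAPS proteins, Doc2, active zone proteins and the exocyst, 50 were called in WT against 42 and 52 at 1 and 5 weeks. These were 92.6, 77.8 and 96.3%, against 59.8, 56 and 66.6% of all genes. At 1 week 9 of the 50 were without their WT peak (18%, against 14.8% of all genes) and 1 was gained. At 5 weeks 0 were without it, against 1.82% of all genes, and 2 were gained. Of all genes without a WT peak, 12.6% had one at 1 week and 19.7% at 5 weeks. The 9 without their WT peak at 1 week were Cplx3, Doc2a, Doc2b, Exoc7, Gosr1, Ppfia4, Rims3, Rph3a and Sv2a. Doc2b, a calcium sensor of insulin release, had 2.52-fold in WT and 2.58 at 5 weeks. Gosr1, a Golgi SNARE, had the strongest of their WT peaks, 5.84-fold, and 3.95 at 5 weeks.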

How the data were processed

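Each library's group follows its genotype and time label. Per the labels (the submitters' processing notes) and the study's methods, reads were aligned by the authors to mm9 with Bowtie 1.0.0, with reads of a unique placement kept, and broad peaks were called with MACS2 2.1.1 on each library alone. The sources used here give no control library, no removal of duplicates and no shifting of reads. In the deposited lists every peak has a fold (ratio of pileup to local background), a -log10 p-value and a -log10 q-value, which MACS2 averages across the region. Their score column, a multiple of the -log10 q, was not used.

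From these lists, peaks on chromosomes 1 to 19, X and Y were kept (2 mitochondrial ones were dropped from each) and compared with starts of protein-coding transcripts in the GENCODE annotation of NCBIM37, which is mm9. A peak counted from 1 bp of overlap with the promoter window, and of several the one with the highest -log10 q was used. Stx5a, Stx8, Snap29, Vamp8, Stxbp4 and Rab3il1 share a promoter window with another protein-coding gene, so a peak there may count for both. The median percentile has a 95% interval from order statistics over the members, which covers the choice of members only.

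Peak lists hold no read totals. Fold and p together determine a peak's local background, and the first percentile of these, the background floor, was 3.66 reads in WT, 6.45 at 1 week and 9.38 at 5 weeks, equal read extension being assumed. A deeper list shows weaker peaks. For the scaled setting, pileup and background were divided by the ratio of floors and p was recomputed. The promoter counting and the floor were tested on simulated data. Python 3.11.15, pandas 2.3.3, scipy 1.17.1 and pysam 0.24.0 were used.

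Other settings were a -log10 q of at least 3 or 5, lists of equal number, the scaling, 2 other windows, the most upstream start, 50 bp of overlap, and the members without RAB30 to RAB39 or without the genes that share a promoter window. Some items are not reported here. Percentiles always refer to the whole list. The members and lists were chosen with earlier results of these data known. Genes were named by a rule: all members with differing calls, a core set of granule release genes, and the 5 members at each end of the WT percentile and of its change at each time. Members outside it are named to complete their groups, as next in GC content, or for a shared promoter window.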

Additional observations from a re-analysis of the deposited data

Results flagged for a closer look

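The net number of members with a promoter peak went in opposite directions at the 2 times. It was -7 at 1 week and 3 at 5 weeks, relative to WT, with 1 library each and the WT list shared, and the difference between the times was not tested. All autosomal genes moved the same way, from 12793 in WT to 11992 at 1 week and 14254 at 5 weeks. The background read depth, at 1.76 and 2.57 times WT, was above WT at both times. Its part in the net change was not tested. Under both settings that even out the lists the members' net change at 5 weeks was below 0, as given in the next paragraph. All genes called in WT and at 5 weeks numbered 12793 and 12794 at equal peak number, and 12757 and 12167 when scaled.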

How the results depend on the processing

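Of 163 values recomputed under other settings 137 stayed close to those reported, 24 moved and 2 changed sign. A count was called close within a fixed ratio, so 12 against 8 and 195 against 281 passed. A median was called close inside its reported interval. At equal peak number the WT list is unchanged, so its values could not move, and the 137 include them. Percentiles were not taken anew in any setting, so the part of list size in them was not tested. At 5 weeks the net change of 3 members was -2 when each list gave as many peaks as WT and -3 when scaled to the WT depth. At 1 week the net change of -7 was -13 for -log10 q values from 3 up, -23 from 5 up and -11 when scaled, and it was below 0 in every setting. Members with a promoter peak at 1 week fell to 36 for values from 5 up, against 59 in WT. All genes also had fewer calls at 1 week than in WT in these settings. They numbered 11668 in WT and 9698 at 1 week from 3 up, 10579 and 7286 from 5 up, and 12757 and 10177 when scaled. Members without their WT peak at 1 week numbered 16 from 3 up and 25 from 5 up, and those with a peak not in WT 3 and 2. With the most upstream start the latter were 3 at 1 week and 5 at 5 weeks. At 5 weeks members without their WT peak numbered 1 from 3 up, 2 from 5 up, 3 at equal peak number, 4 when scaled and 1 with the most upstream start. Those with a peak not in WT numbered 6 from 5 up, and 1 both at equal peak number and when scaled. Counts of members without their WT peak, or with one not in WT, have no share of all genes beside them in these settings. They are not read as particular to the members. Counting from 5 up, the median fold at 1 week was 3.75 and the median percentile 93.5, since fewer and stronger peaks are counted. Gene body peaks, in settings chosen after seeing the data, fell at 1 week to 159 at equal peak number and to 147 when scaled, and at 5 weeks to 190 and 156. Those of all genes were then below WT, with ratios of 0.768 and 0.697 at 1 week and 0.941 and 0.741 at 5 weeks. Counts of lower fold and higher percentile over overlapping peaks only, also chosen after seeing the data, stayed close. Other causes were not tested. No paired analysis was possible because each group has 1 library.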

Other observations

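Symbols of the same families on chromosome X were outside the rule. Sytl4 (granuphilin), a Rab27 effector of insulin granules, had a promoter peak of 2.87-fold in WT, 2.16-fold at 1 week and 2.75-fold at 5 weeks, at the 26.9, 22.4 and 70.7 percentiles. Rab39b had 5.98, 3.31 and 3.18, and Rab33a had 3.18 in WT, 2.35 at 1 week and none at 5 weeks. Sytl5 had none in any list.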
